A study of Mus musculus with 8 samples.

Results

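The 12S and 16S ribosomal RNAs (rRNAs) of the mouse mitochondrion are the rows RNR1 and RNR2 of the count tables, 2 of the 24460 genes in them and 2 of their 39 mtDNA features. Both were chosen by name, with no measured value in the rule. The counts come from RNA-Seq of wild type mouse embryonic fibroblast (MEF) cells cultured without RHPS4 (0 µM, 3 libraries), with 2 µM RHPS4 (3 libraries) or with 10 µM RHPS4 (2 libraries). RHPS4 is a small molecule that binds G-quadruplexes (G4), the folded structures of guanine-rich nucleic acid, and the study asked how it affects mitochondrial gene expression. The exposure times in the labels are not tied to single libraries. Total RNA was depleted of nuclear rRNA before strand-specific libraries were made, and how far the depletion reached mitochondrial rRNA is not given in the sources used here. Nothing in the labels says that the libraries of a dose came from separate cultures, so that p-values measure only the spread between these libraries.

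The 12S rRNA is the RNA scaffold of the small subunit of the mitochondrial ribosome and the 16S rRNA that of the large subunit, which together translate the mRNAs encoded by mtDNA. Both are cut from long heavy-strand transcripts in which transfer RNAs (tRNAs) sit between the longer RNAs and mark the places of cleavage. The rRNA genes lie next to the heavy-strand promoters, HSP1 and HSP2.

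In GRCm38, the assembly that mm10 names, RNR1 (mt-Rnr1, ENSMUSG00000064337.1) occupies chrM:70-1024 and RNR2 (mt-Rnr2, ENSMUSG00000064339.1) occupies chrM:1094-2675, both on the + strand and each a single exon with no coding sequence. RNR1 is 955 bases long and RNR2 is 1582. The gene for tRNA-Phe (TRNF) precedes RNR1 with 1 base between them, tRNA-Val (TRNV) fills the interval between the 2 rRNAs with 0 bases to spare on either side, and tRNA-Leu (TRNL1) and then ND1 follow RNR2 directly. The ends of both rRNAs, from the GENCODE transcripts, are shown because they are the cut sites beside these tRNAs, with the first 24 and the last 30 bases of each printed 5′ to 3′. Capitals mark GGAA in the last bases of RNR1, the loop of the terminal hairpin whose adenines the methyltransferase TFB1M modifies.
RNR1 first bases, chrM:70-93: aaaggtttggtcctggccttataa
RNR1 last bases, chrM:995-1024: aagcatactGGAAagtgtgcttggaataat
RNR2 first bases, chrM:1094-1117: actaatcctagccctagccctaca
RNR2 last bases, chrM:2646-2675: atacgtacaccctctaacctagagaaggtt

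The 2 genes differ in how many predicted G4-forming stretches their template strand holds. Of the 42 mouse mtDNA stretches that the study listed as G4-forming, 33 lie wholly within 1 mtDNA gene, 3 of these within RNR1 and 0 within RNR2. The 3 are printed as the + strand (the RNA) reads, with runs of 3 or more C in capitals. On the heavy strand, which the polymerase copies to make these rRNAs, each such run is a run of G.
RNR1, chrM:202-231: aagacaccttgcctagccacaCCCCCacgg
RNR1, chrM:634-666: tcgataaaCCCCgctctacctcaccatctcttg
RNR1, chrM:896-930: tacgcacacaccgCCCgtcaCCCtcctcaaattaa
A score of G-richness against C-richness (G4Hunter, in windows of 25 bases) was also counted. The study made its list with the same score, window and threshold, so these counts are not separate support for the split. In RNR1, 26 of 931 windows scored -1.0 or below, which marks a G-rich heavy strand, and the lowest score was -1.32. In RNR2, 0 of 1558 windows did, and the lowest score was -0.96, in the stretch below.
RNR2, chrM:1924-1948: aCCCCgcctgtttaccaaaaacatc
Among the other mtDNA genes, 9 of 13 mRNA genes and 1 of 22 tRNA genes had such a window. The 2 rRNA genes were alike in GC content, 35.8% in RNR1 and 35.4% in RNR2. Neither gene shared a stretch of 75 bases, the length of a sequencing read, with any nuclear transcript in GENCODE (0 of 881 stretches in RNR1 and 0 of 1508 in RNR2). Copies in nuclear DNA outside annotated transcripts were not examined here.

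Libraries held between 10455965 and 26688121 counts. At that depth the counting error of an rRNA share is small, with Wilson 95% intervals at most 0.0163 percentage points wide for RNR1 and 0.038 for RNR2. Counting error is all that these intervals cover, because fragments copied by PCR were counted alike. Of 12 fibroblast markers, 11 were above 100 CPM (counts scaled to library size) in every library. The summed epithelial, endothelial and skeletal muscle markers stayed under 5 CPM each. In the same units the blood and macrophage markers summed to between 15.7 and 21.7, and the neural markers, with Nes as the most abundant, to between 52.0 and 75.6. No pair of libraries within a dose agreed within sampling noise, as the chi-square per degree of freedom was at least 3.23.

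The 16S rRNA had the most counts of the mtDNA features and fell with each dose. RNR2 took 11.3%, 9.25% and 8.84% of all counts in the 3 untreated libraries, 6.59%, 5.79% and 5.91% in the 2 µM libraries, and 5.01% and 4.18% in the 10 µM libraries. The doses did not overlap, with all 10 µM libraries below all 2 µM libraries and these below all untreated ones. In CPM scaled by edgeR's TMM method, the same order without overlap held for 1.32% of the 14296 genes that passed its filter on low counts and for 10 of 26 tested mtDNA features, both rRNAs among them. The mean share was 9.79% ± 1.31 (SD, n = 3) in untreated cells, against 6.10% ± 0.430 (SD, n = 3) with 2 µM and 4.60% ± 0.586 (SD, n = 2) with 10 µM RHPS4. In bulk RNA, fewer cells that hold the rRNA and less of it per cell cannot be told apart. An exact permutation test of the F statistic over the 3 doses gave p = 0.00357, the smallest p that 3, 3 and 2 libraries allow, and an adjusted p of 0.0286 over the 8 shares and ratios tested. Each pair of doses alone reached its smallest possible two-sided exact p, 0.1 for 3 libraries against 3 and 0.2 for 3 against 2, and none of these could pass a threshold of 0.05.

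The 12S rRNA also had its lowest shares at 10 µM, and its highest share was 1.63 times its lowest within 0 µM, 1.83 times within 2 µM and 1.06 times within 10 µM, against 1.28, 1.14 and 1.20 for RNR2. RNR1 took 1.85%, 2.81% and 3.01% of all counts in the untreated libraries, 0.847%, 0.941% and 1.55% at 2 µM, then 0.800% and 0.754% at 10 µM. The doses again did not overlap, although the lowest 2 µM library lay close to the higher of the 10 µM libraries. The mean share was 2.56% ± 0.622 (SD, n = 3), 1.11% ± 0.380 (SD, n = 3) and 0.777% ± 0.0326 (SD, n = 2) in the order of the doses. Over the 3 doses the exact permutation test gave p = 0.0357, with an adjusted p of 0.0929 over the 8 measures.

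**Figure D1:**
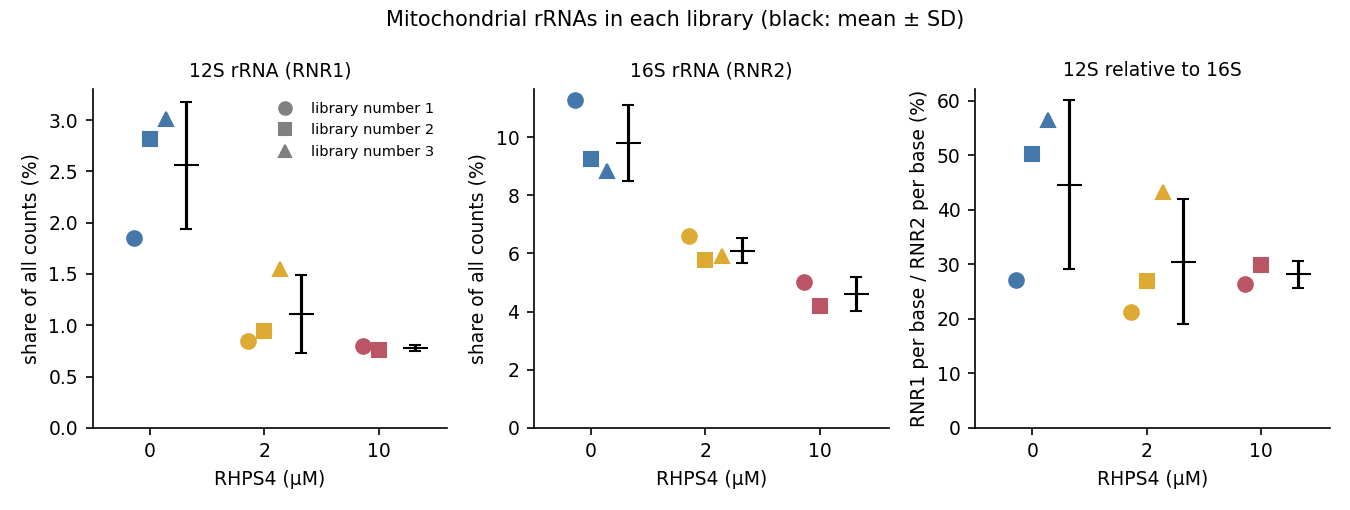
Share of all counts taken by RNR1 (left) and RNR2 (middle), in percent, and RNR1 counts per base as a percentage of RNR2 counts per base (right), against the RHPS4 dose in µM. Each symbol is a library, its shape gives the library's number within the dose, and black bars are the mean ± SD. The RNR2 shares step down without overlap from 8.84% or more at 0 µM to 5.01% or less at 10 µM, whereas the per-base ratio overlaps between all doses.

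The test across all genes used counts scaled by edgeR's TMM method and its quasi-likelihood test on all 8 libraries, and a gene counted as called when it changed more than 1.5-fold with a Benjamini-Hochberg adjusted p below 0.01. At 10 µM both rRNAs were called lower than at 0 µM, where 1.14% of all tested genes were called lower and 3.09% in either direction. RNR1 averaged 27113 ± 6234 CPM (SD, n = 3) in untreated cells against 7108 ± 354 (SD, n = 2) with 10 µM RHPS4, and its log2 fold change was -1.93 (SE 0.271, adjusted p = 0.00102 from edgeR). RNR2 averaged 104233 ± 15923 CPM (SD, n = 3) against 42057 ± 5688 (SD, n = 2), and its log2 fold change was -1.31 (SE 0.173, adjusted p = 0.000704 from edgeR). RNR1 was thus at 26.2% and RNR2 at 40.3% of its untreated level. Markers of cell types moved in the same comparison. Of the 25 that were tested, 1 was called higher at 10 µM, Tubb3 of the neural list (log2 fold change 1.42), and 3 were called lower, Nes of the same list (-0.63), Cd14 of the blood and macrophage list (-0.95) and the fibroblast marker Pdgfrb (-0.60). Scaled by total counts alone, the summed neural markers were at 67.0 to 69.7 CPM without RHPS4 and at 52.0 to 63.7 with 10 µM. The blood and macrophage markers were at 20.2 to 21.7 and 15.7 to 18.5, the fibroblast markers at 14546 to 15020 and 15077 to 15353. The scarce lists were higher with 10 µM. Epithelial markers were at 2.58 to 3.11 and 4.59 to 4.71, and endothelial markers at 2.44 to 3.44 and 4.32 to 4.43. Skeletal muscle markers were at 1.53 to 2.33 and 2.72 to 3.64. The TMM factors were 0.923 to 0.960 at 0 µM and 1.09 to 1.10 at 10 µM. Applying them lowers the 10 µM sums relative to untreated ones, so the higher fibroblast sums do not show a rise on the TMM scale. The part of the markers in the rRNA values was not tested. The call of RNR1 was lost when either 10 µM library was left out (adjusted p = 0.0113 without the first and 0.0158 without the second, edgeR), and that of RNR2 when only the 2 groups compared were fitted (adjusted p = 0.0113, edgeR).

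At 2 µM neither rRNA passed the threshold, although for both all 2 µM libraries were lower than all untreated ones, as was so for 12.9% of tested genes. RNR1 averaged 11181 ± 3928 CPM (SD, n = 3), and its log2 fold change was -1.28 (SE 0.229, adjusted p = 0.0149 from edgeR). RNR2 averaged 61207 ± 4450 CPM (SD, n = 3), and its log2 fold change was -0.77 (SE 0.149, adjusted p = 0.0207 from edgeR). At this dose 0.497% of all tested genes were called in either direction and 0.378% of all tested genes were called lower. Both rRNAs were called with DESeq2 (adjusted p = 0.0032 for RNR1 and 4.97e-08 for RNR2) and with edgeR and no filter on low counts (adjusted p = 0.000612 and 0.000228). Leaving out the first untreated library also brought both past the threshold in edgeR (adjusted p = 0.003 for RNR1 and 0.00872 for RNR2), and leaving out the third 2 µM library did so for RNR1 (adjusted p = 0.00696). Neither was called with any other library left out, and over the 8 such fits the adjusted p of edgeR ran from 0.003 to 0.103 for RNR1 and from 0.00872 to 0.134 for RNR2, both highest without the second 2 µM library.

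Between the doses the log2 fold change of 10 µM against 2 µM was -0.65 for RNR1 (SE 0.257, adjusted p = 0.0882 from edgeR) and -0.54 for RNR2 (SE 0.168, adjusted p = 0.0382 from edgeR), and neither was called. In that comparison 5.51% of all tested genes were called in either direction and 1.59% of all tested genes were called lower. RNR2 was called with no filter on low counts (log2 fold change -0.59, adjusted p = 0.00121 from edgeR).

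Since the rRNAs are cut from the same transcript, the ratio of RNR1 to RNR2 within a library can be read without any scaling between libraries. As a percentage of RNR2 counts per base, RNR1 counts per base came to 27.1%, 50.3% and 56.5% in the untreated libraries, 21.3%, 26.9% and 43.3% at 2 µM, then 26.5% and 29.9% at 10 µM. The 12S rRNA was below the 16S rRNA per base in all 8 libraries. The doses overlapped, since the first untreated library and the 10 µM libraries fell among the 2 µM libraries. On the log2 scale of counts, with 0.5 added to each, the ratio averaged -1.96 ± 0.569 (SD, n = 3) in untreated cells, -2.50 ± 0.522 (SD, n = 3) with 2 µM and -2.56 ± 0.124 (SD, n = 2) with 10 µM RHPS4. The difference was -0.54 between 2 µM and 0 µM (pooled SD 0.546, two-sided exact permutation test, p = 0.2) and -0.60 between 10 µM and 0 µM (pooled SD 0.470, exact p = 0.4). With 1 library left out at a time these differences kept their sign. The first moved to -0.87 without the first untreated library, -0.83 without the third 2 µM library, -0.34 without the third untreated library and -0.32 without the first 2 µM library, and the second to -0.92 without the first untreated library and -0.39 without the third. Between 10 µM and 2 µM the difference was -0.05, its sign changed when the third 2 µM library was left out (0.23) or the first 10 µM library (0.03), and the exact p was 1.0. Over the 3 doses the exact permutation p was 0.414. RNR1 had the larger mean drop in the test across genes, but within libraries the difference between the rRNAs did not separate the doses.

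The ratio spread 2.08-fold among the untreated libraries, 2.04-fold among the 2 µM libraries and 1.13-fold between the 10 µM libraries. At 0 and 2 µM RNR1 varied more between libraries than RNR2, and at 10 µM less. For RNR1 the SD of log2 CPM was 0.357 at 0 µM and 0.476 at 2 µM, larger than that of 86.8% and 92.3% of all tested genes, against medians of 0.143 and 0.122. For RNR2 the SD was 0.213 and 0.104, larger than that of 69.6% and 42.8% of tested genes. At 10 µM the SD was 0.0718 for RNR1 and 0.196 for RNR2 (n = 2), larger than that of 33.3% and 70.3% of tested genes.

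Features of the libraries moved with the ratio. Rn45s, the row that holds what was left of the nuclear rRNA precursor after depletion, took 1.08%, 1.35% and 1.74% of all counts in the untreated libraries, 0.835%, 0.907% and 1.09% at 2 µM, then 1.04% and 0.646% at 10 µM. Within 0 µM and within 2 µM the libraries stood in the same order by the RNR1 to RNR2 ratio, by the Rn45s share and by total counts, and at 10 µM the order was the opposite for both features. Over the 8 libraries Pearson's r of the log2 ratio with the Rn45s share was 0.807 (exact permutation p = 0.0156) and Spearman's rho 0.738 (exact p = 0.0458). With total counts r was 0.912 (exact permutation p = 0.00253) and rho 0.762 (exact p = 0.0368). Adjusted over these 2 relations, the largest p was 0.0458 (exact permutation test). The permutations moved libraries across doses, so these p-values do not separate a relation within doses from one between them. Without the pair of libraries farthest from the median, r was 0.874 with the Rn45s share and 0.752 with total counts (n = 6). The 3 libraries with the highest ratio were also the 3 with the most counts, 2 of them untreated, so dose and depth overlap in part, no dose holds enough libraries for a value of its own, and the part of depletion or depth in the ratio was not tested.

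**Figure D2:**
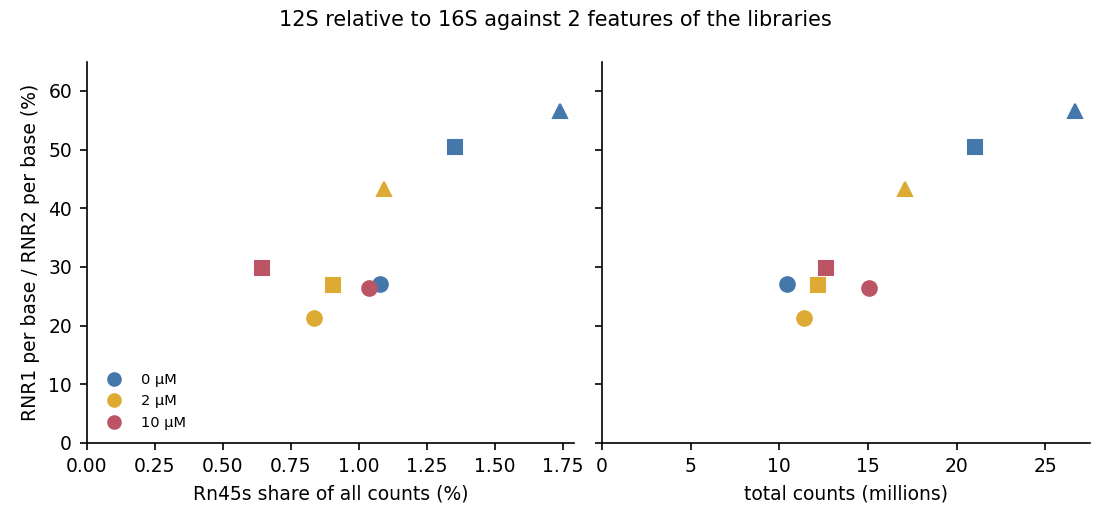
RNR1 counts per base as a percentage of RNR2 counts per base against the Rn45s share of all counts in percent (left) and against total counts (right). Each point is a library, with colour for the RHPS4 dose and shape for the library's number as in the plot of shares. The highest ratio, 56.5%, belongs to the library with the highest Rn45s share, 1.74%, and the most counts.

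The rRNAs dominated the mtDNA-derived counts at every dose, with 89.6% to 92.7% of them. Within the mtDNA counts the RNR2 share was 71.3% ± 6.19 (SD, n = 3) in untreated cells, 76.6% ± 4.43 (SD, n = 3) with 2 µM and 78.9% ± 0.561 (SD, n = 2) with 10 µM RHPS4. The RNR1 share was 18.8% ± 5.28, 13.9% ± 4.35 and 13.4% ± 1.06 with the same n. Over the 3 doses neither passed the exact permutation test (p = 0.261 for RNR2 and 0.386 for RNR1). The mean RNR2 share of mtDNA counts was higher at both doses than without RHPS4, the opposite of its share of all counts, and the libraries overlapped at 2 µM.

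The log2 ratio of both rRNAs together to the 13 mRNAs together was 3.39, 3.13 and 3.12 in the untreated libraries, 3.23, 3.35 and 3.24 at 2 µM, then 3.53 and 3.68 at 10 µM. Because COX2, ATP6, COX3, ND3 and ND4L add few counts to the mRNA sum, the level of this ratio may be too high. Both 10 µM libraries lay above all others, by a mean of 0.39 over 0 µM (pooled SD 0.139) and 0.33 over 2 µM (pooled SD 0.0799), each at the smallest two-sided exact p of 0.2. Over the 3 doses the exact permutation p was 0.0321, adjusted to 0.0929 over the 8 measures. At 2 µM the mean difference from 0 µM was 0.06 (exact permutation p = 0.6), its sign depended on the mRNAs chosen, and with ND1 in place of the 13 mRNAs it was -0.36.

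ND1, a complex I subunit and the first mRNA behind RNR2, and CYTB, the complex III subunit at the far end of the heavy-strand transcript, gave opposite pictures at 2 µM. RNR1 to ND1 on the log2 scale was 3.20, 3.74 and 3.80 in the untreated libraries, 2.29, 2.89 and 3.16 at 2 µM, then 3.37 and 3.80 at 10 µM. All 2 µM libraries lay below all others, with a mean difference of -0.80 from 0 µM (pooled SD 0.394) and the smallest two-sided p that an exact permutation of 3 and 3 libraries gives, 0.1, and the 10 µM mean was within 0.01 of the untreated mean. RNR2 to ND1 was 5.81, 5.46 and 5.36, then 5.24, 5.51 and 5.09, then 6.02 and 6.27. The 10 µM libraries were the highest for this ratio, with a mean difference of 0.61 from 0 µM (pooled SD 0.221, exact p = 0.2, the smallest possible), whereas 0 µM and 2 µM overlapped (difference -0.26, exact p = 0.3). Over the 3 doses the exact permutation p was 0.104 for RNR1 and 0.0464 for RNR2, adjusted to 0.166 and 0.0929.

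Against CYTB the order was turned. RNR1 to CYTB was 3.22, 3.52 and 3.59 in the untreated libraries, 3.76, 4.19 and 4.37 at 2 µM, then 3.31 and 3.61 at 10 µM, and all 2 µM libraries were above all others. RNR2 to CYTB was 5.83, 5.24 and 5.14, then 6.72, 6.81 and 6.30, then 5.96 and 6.08, and here too the 2 µM libraries were highest. In these ratios the untreated and 10 µM libraries overlapped for RNR1 and did not for RNR2. Ratios to CYTB were compared after values of these libraries were known and were not tested.

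**Figure D3:**
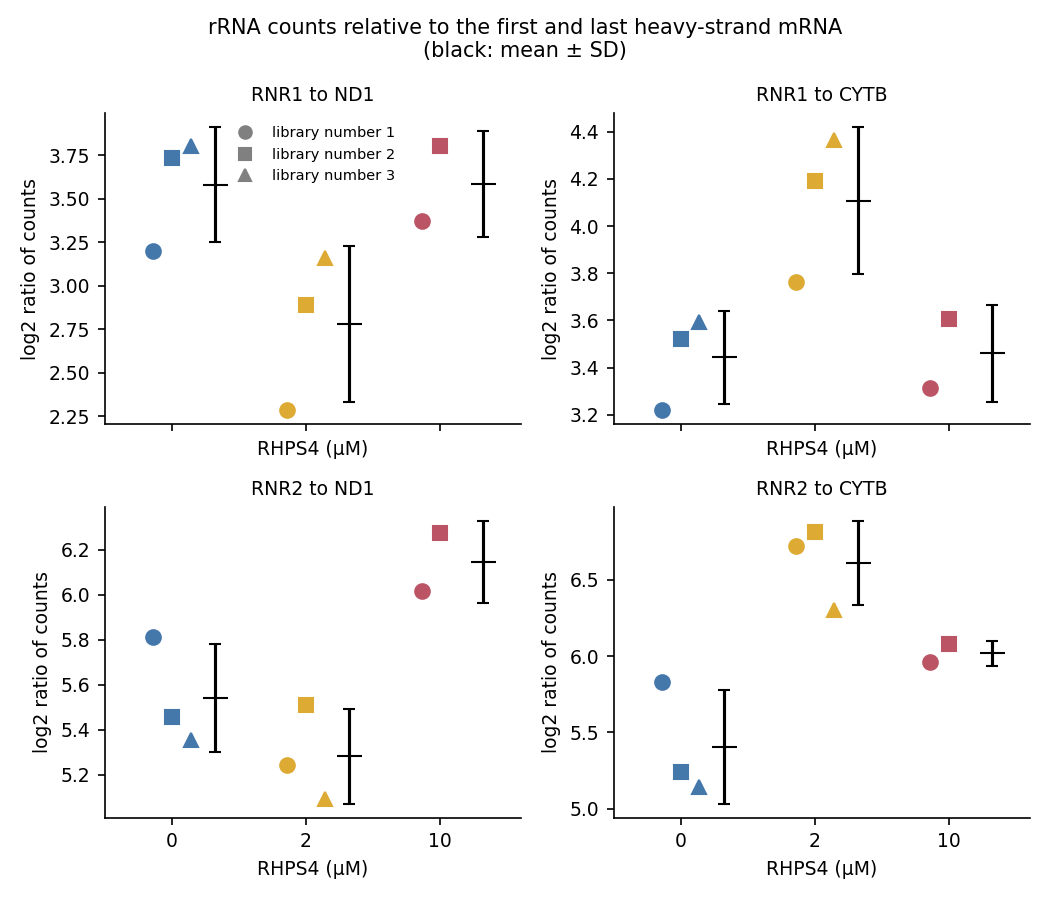
Log2 ratio of RNR1 (top) and RNR2 (bottom) counts to those of ND1 (left) and CYTB (right) within each library, against the RHPS4 dose in µM. Symbols are libraries and black bars the mean ± SD. At 2 µM the RNR1 to ND1 ratios, 2.29 to 3.16, lie below all others, and the RNR2 to CYTB ratios, 6.30 to 6.81, above all others.

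The steadiest of these ratios was that of RNR2 to COX1, a complex IV subunit that was picked out after its values were seen. It was 4.27, 4.13 and 4.12 on the log2 scale at 0 µM, 3.97, 4.01 and 4.00 at 2 µM, then 4.48 and 4.54 at 10 µM. The 3 doses did not overlap, with the lowest values at 2 µM and the highest at 10 µM. A ratio picked with its small spread known separates groups more readily, so the lack of overlap is no test of the doses. Ratios to COX1 were not tested. COX1 also shares 39.8% of its read-length stretches with nuclear transcripts. RNR1 to COX1, by comparison, ranged from 1.66 to 2.57 at 0 µM and from 1.01 to 2.06 at 2 µM.

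Per length, the rRNAs had the most counts of the 15 mtDNA rRNAs and mRNAs at each dose. The place of the mRNAs that share stretches with nuclear transcripts cannot be read from these counts. In CPM per kilobase, RNR2 was at 61902 ± 8306 (SD, n = 3) in untreated cells, 38536 ± 2717 (SD, n = 3) with 2 µM and 29052 ± 3704 (SD, n = 2) with 10 µM RHPS4. RNR1 was at 26788 ± 6514, 11639 ± 3976 and 8136 ± 341 with the same n. COX1, the next in order as counted, was at 3497 ± 267, 2479 ± 209 and 1307 ± 204. COX1 is among the mRNAs that share stretches, with 39.8% of its read-length stretches also in nuclear transcripts. Its level and its place are therefore uncertain. RNR1 and RNR2 differed at every dose by more than the spread of either. The same held for RNR1 and COX1 as counted, within the limit given for COX1.

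Among the 26 mtDNA features tested, the drop of RNR1 was the 10th largest and that of RNR2 the 17th largest at 2 µM, and they were the 10th and the 20th at 10 µM. The median log2 fold change of the features was -0.98 at 2 µM and -1.86 at 10 µM, against -0.01 and 0.02 for all tested genes. TRNA, with the largest drop at both doses, averaged only 1.20 CPM at 0 µM. COX2, ATP6, COX3 and ND3 averaged 0.855 to 2.00 CPM at 0 µM. These mRNAs share 97.8% to 99.9% of their read-length stretches with nuclear transcripts. The ranks and medians rest in part on such scarce or shared rows. At 2 µM 4 of 11 tested mRNAs and 2 of 11 tested tRNAs were called lower, and at 10 µM 8 and 6 of them, where 0.378% and 1.14% of all tested genes were called lower. None was called higher at either dose. In the comparison of 2 µM with 0 µM, the called mRNAs were ND4, ND5, CYTB and ND6, the one mRNA read from the opposite strand. ND1 had a log2 fold change of -0.49 (SE 0.146, adjusted p = 0.0877 from edgeR), CYTB of -1.95 (SE 0.151, adjusted p = 0.000217 from edgeR) and ND6 of -0.99 (SE 0.109, adjusted p = 0.00141 from edgeR). The rRNA values of -1.28 and -0.77 thus lay between those of ND1 and CYTB. At 10 µM the values were -1.89 for ND1, -1.91 for CYTB and -2.00 for ND6, all called, and RNR2 with -1.31 had the smallest drop among the 2 rRNAs and these 3 mRNAs.

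**Figure D4:**
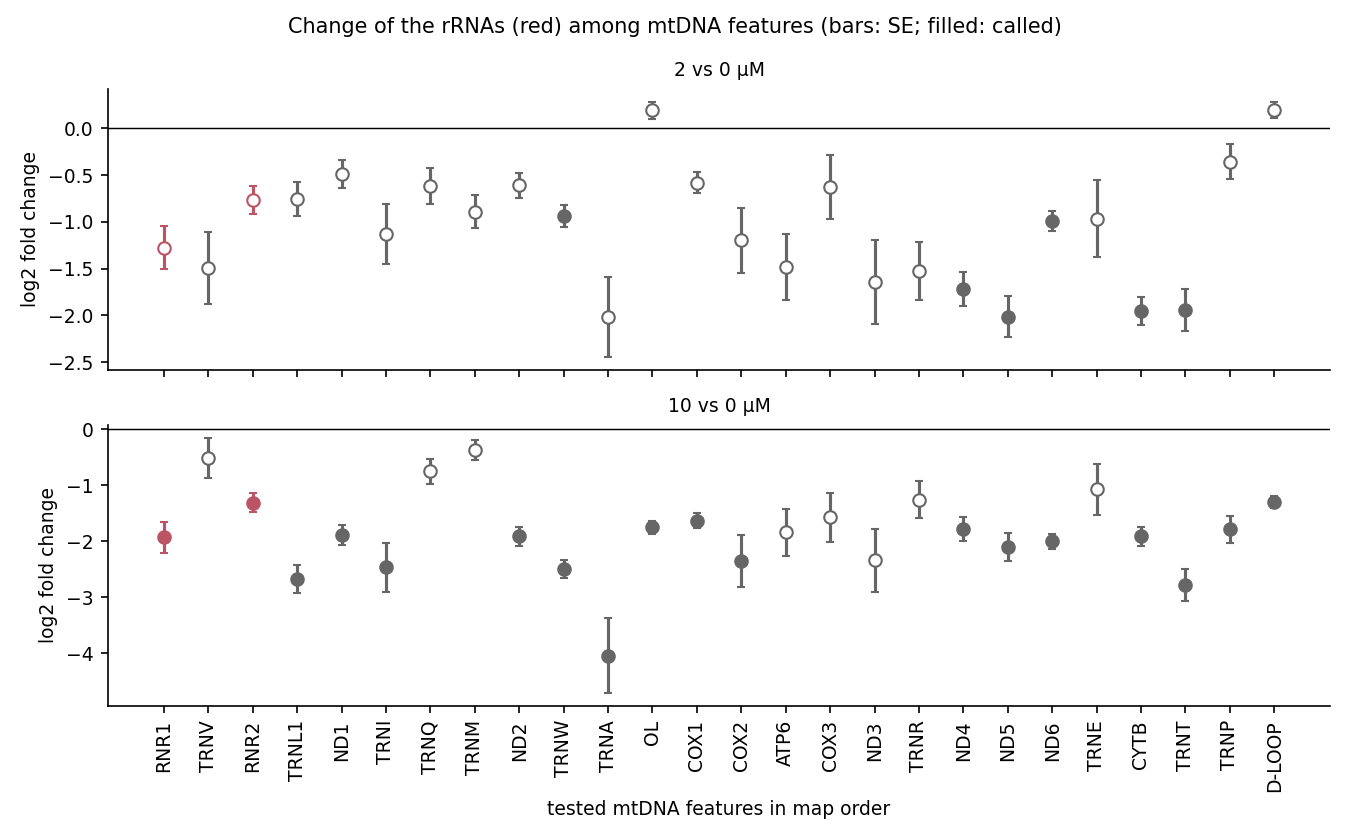
Log2 fold change against 0 µM of the 26 tested mtDNA features in map order from the edgeR fit, at 2 µM (top) and 10 µM (bottom), with RNR1 and RNR2 in red. Bars are standard errors, and filled symbols mark features that were called. At 2 µM the rRNAs (-1.28 and -0.77) are open symbols between ND1 (-0.49) and CYTB (-1.95), and at 10 µM both are filled.

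The tRNAs that flank the rRNAs were too scarce to read closely, as libraries of this kind capture few fragments of mature tRNA. TRNF had from 0 to 6 counts in any library and was not tested. TRNV had 8, 15 and 24 counts at 0 µM, 4, 3 and 5 at 2 µM, then 7 and 11 at 10 µM, and neither dose was called against 0 µM. TRNL1, behind RNR2, had 64, 185 and 225 counts at 0 µM, 70, 52 and 79 at 2 µM, then 26 and 14 at 10 µM. The log2 fold change was -0.76 with 2 µM RHPS4 (SE 0.177, adjusted p = 0.0397 from edgeR), close to that of RNR2, and -2.67 with 10 µM (SE 0.254, adjusted p = 6.54e-05 from edgeR).

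Of the nuclear genes for factors that make and handle these rRNAs, 39 had rows in the tables and all 39 were tested. Against 0 µM, edgeR called 0 of them at either dose, with 10 at an unadjusted p under 0.05 at 2 µM and 8 at 10 µM, and DESeq2 called 0 as well. Of all tested genes 0.497% and 3.09% were called at these doses and 21.3% and 29.4% had an unadjusted p under 0.05, so that the counts of this list were near the background. The 7 genes listed for transcription, among them Polrmt, Tfam, Tfb2m and Mrpl12, had log2 fold changes from -0.09 to 0.35 at 2 µM and from -0.29 to 0.48 at 10 µM. The 4 genes of tRNA-end processing, such as Trmt10c and Elac2, ran from 0.00 to 0.35 and from -0.04 to 0.24. The 9 rRNA-modifying enzymes and their partners, such as Tfb1m and Nsun4, ran from -0.34 to 0.46 and from -0.10 to 0.44. Tfb1m modifies the GGAA loop shown above, and Nsun4, with its partner Mterf4, acts on the 12S rRNA and in joining the ribosomal subunits. The 19 genes of ribosome assembly and RNA stability, such as Eral1 and Lrpprc, ran from -0.02 to 0.33 and from -0.47 to 0.48. The median of the 39 was 0.11 at 2 µM and 0.06 at 10 µM, beside -0.01 and 0.02 for all tested genes.

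Of the 39, edgeR called 1 between the doses, Fastkd5, and DESeq2 called Fastkd5 and Rnmtl1, beside 5.51% of all tested genes called by edgeR. The 1 call by edgeR was not above that share, so it is no result about the list. The Fastkd5 protein sits in mitochondrial RNA granules and takes part in processing mRNA ends that no tRNA marks. Fastkd5 had 24.8, 22.3 and 25.0 CPM at 0 µM, 28.6, 27.4 and 28.1 at 2 µM, then 16.5 and 18.2 at 10 µM. The 10 µM libraries were the lowest and the 2 µM libraries the highest, with a log2 fold change of -0.69 between them (SE 0.0980, adjusted p = 0.000728 from edgeR). All 10 µM libraries were below all 2 µM libraries for 24.9% of all tested genes. Against 0 µM the 10 µM value was -0.47 (SE 0.0975, adjusted p = 0.00979 from edgeR), under the fold change asked for.

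Of the 9 rows listed as residual nuclear rRNA or abundant non-coding RNA, 8 were tested and 0 were called in any of the 3 comparisons by edgeR or DESeq2, with 4 at an unadjusted edgeR p under 0.05 at 2 µM and 7 at 10 µM, beside 21.3% and 29.4% of all tested genes. With 0.497% to 5.51% of all tested genes called, 0 of 8 called is near the background. The rows at an unadjusted p under 0.05 were a larger part of the 8 than of all tested genes at both doses. Of the 8, 6 had a log2 fold change below 0 against 0 µM at each dose. For Rn45s it was -0.64 at 2 µM (adjusted p = 0.0985 from edgeR) and -0.94 at 10 µM (adjusted p = 0.0206 from edgeR). The row of Lars2, the mitochondrial leucyl-tRNA synthetase, which can collect rRNA-like reads, had 513, 147 and 85.6 CPM at 0 µM, 48.7, 21.2 and 35.5 at 2 µM, then 67.8 and 21.0 at 10 µM. The first library was the highest of its dose at 0, 2 and 10 µM, as it was for the RNR2 share of all counts. The log2 fold change of Lars2 was -2.81 at 2 µM (SE 0.622, adjusted p = 0.0338 from edgeR), the lowest of all tested genes at that dose. At 10 µM it was -2.46 (SE 0.708, adjusted p = 0.0404 from edgeR). Its part in the rRNA values was not tested.

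The genes whose levels were most like those of each rRNA over the 8 libraries were ranked by Pearson's r of log2 CPM. ND6 was among the 5 closest mtDNA features of both. With 8 libraries, the other names do not show a difference between the rRNAs. For RNR1 the 5 closest mtDNA features were TRNA (0.969), ND5 (0.956), ND4 (0.949), TRNT (0.936) and ND6 (0.928). For RNR2 they were COX2 (0.967), COX1 (0.958), ND6 (0.951), TRNW (0.924) and ND1 (0.897). RNR1 and RNR2 themselves had an r of 0.849. The closest of 14270 nuclear genes were Rsbn1, Ano6, Chst11, Otud7b and Per2 for RNR1, with r from 0.976 to 0.984, and Wwtr1, Phospho1, Emb, Paqr7 and Hsd11b1 for RNR2, with r from 0.973 to 0.986. The points share the dose and the depth of each library, TRNA and COX2 are low in counts, and COX2 shares 99.5% of its 75-base stretches with nuclear transcripts.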

How the data were processed

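Counts were taken as the authors deposited them, whole numbers of fragments per gene and library, without normalization. Per the labels and the study's methods, reads were trimmed with Trim Galore and cutadapt, aligned to mm10 with STAR 2.5.2a and counted with featureCounts; the annotation is not given in the sources used here. The members and lists were chosen with earlier results of these data known. Genes were tested in R 4.3.3 with edgeR 4.0.16 (filterByExpr, TMM, glmQLFit and glmQLFTest, Benjamini-Hochberg adjustment over 14296 genes, dose as the only factor); the SE is the log2 fold change divided by the square root of F. Within-library ratios had 0.5 added to each count. Shares and ratios were compared by two-sided exact permutation tests of mean differences (24 comparisons, none with an adjusted p under 0.32) and of F over the 3 doses (560 arrangements, 8 measures), in Python 3.11.15 with scipy 1.17.1. Likeness used log2 CPM with a prior count of 2. Positions and sequences came from GENCODE M21 on GRCm38, of the build the authors used. The G4-forming stretches are those of the study's supplement, sequences only. Scripts were tested on simulated data. Named were the rRNAs, their neighbours TRNF, TRNV and TRNL1, ND1, CYTB and ND6 as first, last and opposite-strand mRNAs, listed nuclear genes that passed, and the 5 nuclear and 5 mtDNA features most like each rRNA. Alternatives were RLE, TMM over nuclear genes, total counts, no filter, DESeq2 1.42.0, only the 2 groups compared, a replicate block, other denominators and pseudocounts, and each library left out. Genes of the lists without a row in the tables were not used here.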

Additional observations from a re-analysis of the deposited data

How the results depend on the processing

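On the log2 scale, RNR1 at 2 against 0 µM was called with no filter on low counts (-1.27) and with DESeq2 (-1.28), and RNR2 likewise (-0.76 with both), the former fit also calling RNR2 at 10 against 2 µM (-0.59). Leaving out 1 library gave -1.60 to -1.11 for RNR1 and -0.84 to -0.63 for RNR2 at 2 µM, and -2.13 to -1.79 for RNR1 at 10 µM, where a lone 10 µM library was assumed to vary like the others. RNR2 at 10 against 0 µM missed the threshold when only the 2 groups compared were fitted (-1.31). Both rRNAs kept their sign at both doses in all these fits. Set against mtDNA counts alone, the log2 share of RNR1 differed by -0.44 (2 against 0 µM), -0.45 (10 against 0 µM) and -0.0095 (10 against 2 µM), and that of RNR2 by 0.10, 0.15 and 0.045, which turns its direction. Without the mRNAs that have nuclear copies, the rRNA to mRNA ratio differed by 0.23 at 2 µM, and with ND1 alone by -0.36 at 2 µM and 0.85 between the doses. Values near 0 changed sign when 1 library was left out, RNR1 to RNR2 between the doses (-0.28 to 0.23), RNR1 to ND1 at 10 µM (-0.21 to 0.22), and the mtDNA shares between the doses (-0.20 to 0.23 for RNR1 and -0.0033 to 0.077 for RNR2). The fits of ND1 ratios and mtDNA shares were added after seeing the data. Genes called at 2 µM were 71, or 109 with DESeq2 and 6 to 144 with 1 library left out, those at 10 µM 442, or 235 to 633, and those between the doses 788, or 444 to 884. Scaling by total counts alone raised the calls at 10 µM to 914 and moved the median of all genes from 0.02 to 0.23, with 846 higher and 68 lower in place of 279 and 163. It gave 26 and 40 in place of 17 and 54 at 2 µM, and 923 and 84 in place of 561 and 227 between the doses.

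With the replicate number of the labels as a block, RNR1 at 2 against 0 µM was called (-1.31, adjusted p = 0.00491 from edgeR). Differences within numbers turned the sign between the doses for RNR1 to RNR2 (0.23) and for the mtDNA shares of RNR1 (0.23) and RNR2 (-0.00328). The block changed no other call of an rRNA and gave 54, 322 and 735 called genes. The numbers were not shown to pair the libraries: deviations from the dose means correlated at 0.199, 0.0845 and 0.161 between libraries of like number at 0 and 2 µM, each highest with its own number, and at or below -0.0212 in pairs with 10 µM.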
